A study of Homo sapiens with 6 samples.

Results

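Nodal is a secreted signal of the TGF-beta family, and 9 genes of its pathway were compared between mesodermal progenitors and the human embryonic stem cells they came from. They were the ligands NODAL and GDF3, the coreceptor TDGF1, the secreted inhibitors LEFTY1, LEFTY2 and CER1, and the nuclear effectors FOXH1, SMAD2 and SMAD3. A gene counted as measured when at least 1 probe set, a group of short oligonucleotides for 1 transcript, was annotated to it alone. This held for 7 of the 9 genes, among 19775 genes on the array, and they had 18 probe sets of 54675 in the table. TDGF1 is not analysed here. LEFTY2 shared its probe set with LEFTY1, and that probe set is described as the shared one.

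Each group had 3 arrays of biotin-labelled RNA from H9, an established human embryonic stem cell line (hESC). The progenitors had been grown from H9 cells in Stemline II medium to which FGF2, VEGF, BMP4 and activin A were added, and cells that lacked CD326 and carried CD56 had been sorted at day 3.5. The cells they are set against were undifferentiated H9 cells, and their labels repeat the protocols of the progenitors and name no medium or sort of their own. Only 1 cell line was used, no unsorted cells of day 3.5 were measured, and nothing in the labels tells if replicates came from separate cultures. The p-values therefore rest on a spread among these 6 arrays that may be technical, and sorting cannot be told apart from differentiation.

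In the cell, nodal and the related activin bind type I and type II activin receptors, which phosphorylate SMAD2 and SMAD3. These join SMAD4, enter the nucleus and act with partners such as FOXH1. Nodal, unlike activin, also needs a coreceptor of the EGF-CFC family, to which TDGF1 and CFC1 belong. NODAL, LEFTY1, LEFTY2 and CER1 are themselves targets of the pathway, so the signal feeds forward on its ligand and back through its inhibitors. The pathway sustains pluripotency in human stem cells and induces mesoderm and endoderm in the primitive streak of the embryo.

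The marker genes followed the labels. All 10 mesoderm markers rose, among them MESP1 by 5.22 and TBXT by 3.13 on the log2 scale, and 8 of 9 measured pluripotency markers fell. NANOG fell by 4.17 and SOX2 fell by 3.52. Of 10 markers of neuroectoderm 1 rose and 1 fell. The progenitor arrays summed to 18690 to 20158 intensity units over the mesoderm list, and the hESC arrays to 1695 to 2451. Over the pluripotency list the progenitor arrays summed to 10671 to 11178 and the hESC arrays to 31440 to 34910. Progenitor array 1 stood apart, with 179 genes more than 1 log2 unit from the mean of the other arrays of its group, against 15 to 54 genes for each of the other 5 arrays. Median deposited intensities were 31.0 to 31.2 on the progenitor arrays and 33.1 to 36.1 on the hESC arrays. The number of arrays limits the precision of every value.

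Of the 7 measured genes, 3 were higher in the progenitors, CER1, SMAD2 and SMAD3. Another 3 were lower, NODAL, GDF3 and LEFTY1, and FOXH1 did not pass the test. A gene was called at an adjusted p under 0.05 in limma, adjusted by the Benjamini-Hochberg method across the 19775 genes. Under this rule 47.9% of all genes were called, 26.7% as higher and 21.2% as lower, so a call by itself was common on these arrays. The sizes covered a wide range, from a log2 change of -5.33 for LEFTY1 to one of 4.58 for CER1, with a median of 0.09, against a median of 0.04 over all genes tested. The groups did not overlap for 6 of the 7 genes, and for 57.3% of all genes. Log2 changes subtract the hESC mean from the progenitor mean of log2(intensity + 16) after quantile normalization, a scale that understates the change of dim genes. Values of single arrays are deposited intensities unless a log2 scale is named. In bulk RNA, fewer cells with a transcript and less of it per cell cannot be told apart.

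**Figure D1:**
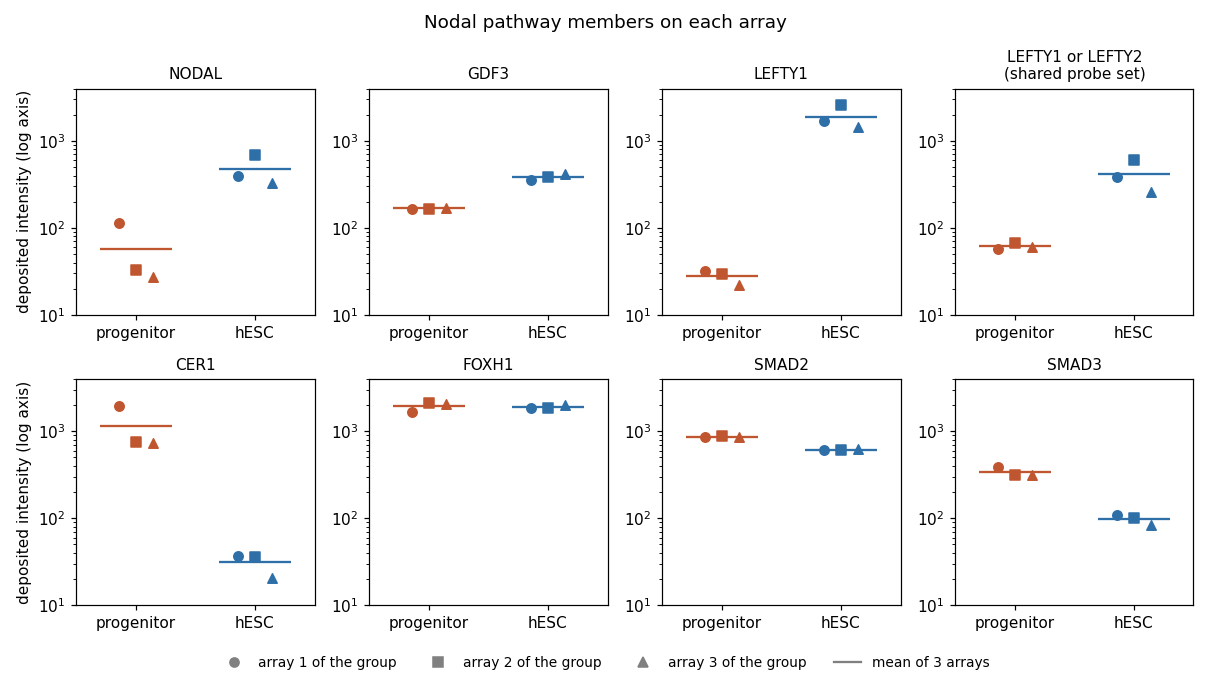
Deposited intensity (log axis) of each measured member and of the probe set shared by LEFTY1 and LEFTY2, for 3 progenitor arrays (left) and 3 hESC arrays (right); symbols give the array number, and lines the group mean. NODAL, GDF3 and LEFTY1 lie lower and CER1, SMAD2 and SMAD3 higher on all 3 progenitor arrays, while the FOXH1 groups overlap.

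The promoters of NODAL and CER1, the ligand that fell and the inhibitor that rose, are shown because both genes are known targets of the SMAD proteins and moved in opposite directions. Each sequence is the 250 bases before an annotated start, from RefSeq on GRCh38.p14, read on the minus strand, at chr10:70441682-70441931 for NODAL and at chr9:14722734-14722983 for CER1. The capitals mark the SMAD box, searched as CAGAC on both strands.

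NODAL: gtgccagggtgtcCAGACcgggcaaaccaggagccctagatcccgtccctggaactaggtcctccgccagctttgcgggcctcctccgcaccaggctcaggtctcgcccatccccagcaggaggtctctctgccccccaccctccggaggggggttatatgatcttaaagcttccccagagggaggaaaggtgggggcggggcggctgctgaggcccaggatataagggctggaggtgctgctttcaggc

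CER1: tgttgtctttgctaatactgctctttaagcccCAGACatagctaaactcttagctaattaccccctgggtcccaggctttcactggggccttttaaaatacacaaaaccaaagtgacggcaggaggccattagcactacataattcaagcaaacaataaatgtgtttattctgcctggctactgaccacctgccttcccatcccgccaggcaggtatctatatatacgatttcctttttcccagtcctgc

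Each window held 1 SMAD box, at position -237 for NODAL and at -218 for CER1, counted to its first base from the start. The window of GDF3, the other ligand that fell, held none. The SMAD box is short, and 38% of 35116 promoter windows of this length held at least 1. The FOXH1 motif AATCCACA, which 0.709% of the windows held on either strand, was in neither window, nor were its last 7 letters, ATCCACA, which 2.27% held. The SMAD palindrome GTCTAGAC, held by 0.182% of windows, was in neither. These letters overlap no other motif searched here except that the 7-letter form lies within the 8-letter one, and a match in a window describes its letters and shows no binding. Sequence beyond the windows was not searched, so the absence of a motif does not show that a gene is no target.

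NODAL, the ligand that gives the pathway its name, was lower in the progenitors. Its brightest probe set was at 113, 32.8 and 27.6 on progenitor arrays 1, 2 and 3 and at 397, 682 and 332 on hESC arrays 1, 2 and 3. All progenitor arrays lay below all hESC arrays, with array 1 the highest of the progenitors and array 2 the highest of the hESC. The log2 change was -2.81 (SE 0.42, n = 3 per group, adjusted p = 0.00108 in limma), and the mean intensity was 57.8 in the progenitors and 470 in hESC. Without progenitor array 1 the change was -3.28, and without hESC array 2 it was -2.53.

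The other NODAL probe sets were dimmer and moved by less. The middle one was at 23.6, 3.64 and 8.88 in the progenitors and at 62.0, 84.4 and 44.6 in hESC. It repeated the pattern of the brightest one, with progenitor array 1 and hESC array 2 the highest of their groups. Its log2 change was -1.47 (adjusted p = 0.00514 over all probe sets). The dimmest was at 7.47, 10.4 and 10.9 in the progenitors and at 14.9, 15.0 and 16.1 in hESC, without overlap but within a narrow range. It did not pass, with a log2 change of -0.23 and an adjusted p = 0.0983. Averaged over its 3 probe sets, NODAL changed by -1.50, still past the threshold.

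GDF3, a ligand of the same family that can signal through the nodal receptors, was also lower. It was at 164, 167 and 172 in the progenitors and at 361, 390 and 418 in hESC. The groups were tight and far from each other, and varied little within. GDF3 changed by -1.17 on the log2 scale (SE 0.09, adjusted p = 3.5e-05), and had only this probe set. Under all alternatives it stayed lower, between -1.29 and -0.62, the last with scaling on hybridization controls.

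LEFTY1, a secreted inhibitor that blocks nodal and its coreceptor and that nodal signalling induces, had the largest fall of the members. Its probe set was at 31.9, 29.98 and 22.0 in the progenitors and at 1695, 2580 and 1452 in hESC. All hESC arrays were far above all progenitor arrays, where LEFTY1 lay near or below the median intensity of the array and was not shown to be above background. Its log2 change was -5.33 (SE 0.20, adjusted p = 1.2e-06), and it was -5.90 and -4.32 when the pseudocount of 16 was replaced by 1 and by 64.

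The probe set annotated to both LEFTY1 and LEFTY2, which encode closely similar proteins, was lower too. It was at 57.9, 66.6 and 60.8 in the progenitors and at 389, 608 and 261 in hESC, without overlap. Its log2 change was -2.37 (SE 0.25, adjusted p = 0.000315 over all probe sets). This probe set cannot assign its signal to either gene, so no value is given for LEFTY2 alone. It and the LEFTY1 probe set shared the order of the hESC arrays, with array 2 the highest and array 3 the lowest.

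CER1, a secreted antagonist of nodal and BMP, moved the other way. It was at 1952, 743 and 742 on progenitor arrays 1, 2 and 3 and at 36.7, 35.9 and 20.6 in hESC. Every progenitor array was far above every hESC array, and array 1 was far above its own group. The log2 change was 4.58 (SE 0.37, adjusted p = 4.8e-05) against hESC values near or below the array medians, not shown to be above background. It was 5.16 and 3.59 at pseudocounts of 1 and 64. Without progenitor array 1 the log2 change was 4.11.

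CER1 is also made by anterior endoderm in the embryo, so the endoderm markers are given beside it. Among the 8 endoderm genes measured, 4 were higher, 2 were lower and the rest did not pass, and the list summed to 669 to 846 on the progenitor arrays and to 578 to 661 on the hESC arrays. SOX17, a factor of endoderm and of early vessels, was at 143, 95.2 and 107 in the progenitors and at 9.07, 13.4 and 7.20 in hESC. FOXA2, a defining endoderm factor, was at 24.3, 28.5 and 26.1 in the progenitors and at 15.2, 21.1 and 11.8 in hESC, and rose by 0.50 (adjusted p = 0.00724). These values, from the brightest of its 3 probe sets, all lay below the median intensity of their arrays and were not shown to be above background. CXCR4 and APOA2 were also higher, with changes of 1.80 and 1.71, while FOXA3 and AFP were lower, at -0.49 and -0.58. The sort kept cells without CD326, the adhesion molecule EpCAM, and whether this removed endoderm cells was not tested. The part of endoderm cells in the CER1 signal was not tested.

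FOXH1, the forkhead partner that brings SMAD proteins to nodal targets, was not shown to differ. Its brighter probe set was at 1657, 2093 and 2047 in the progenitors and at 1864, 1839 and 1997 in hESC, and the groups overlapped. On the log2 scale the change was 0.09 (SE 0.12, adjusted p = 0.584), and the other probe set gave -0.20 (adjusted p = 0.338). The sign depended on the scaling before the shift of all genes was taken off. Median centring of the arrays gave -0.13, and scaling on the hybridization controls gave 0.53, past the threshold, and both were 0.02 above the median change of all genes. Array weights gave 0.20, also past the threshold, with an adjusted p = 0.0426, against a range of 0.0122 to 0.916 over all alternatives.

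SMAD2, which carries the signal from the receptors, was modestly higher. Its brightest probe set was at 865, 893 and 852 in the progenitors and at 608, 607 and 622 in hESC, 2 tight groups without overlap. The log2 change was 0.54 (SE 0.08, adjusted p = 0.000884). It was 0.35 with median centring and 1.01 with scaling on hybridization controls, and in both 0.50 above the median change of all genes. Of its 6 probe sets 5 rose, by 0.34 to 0.69. The dimmest was at 14.8, 16.5 and 17.7 in the progenitors and at 23.2, 10.6 and 7.62 in hESC, and did not pass (0.22).

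SMAD3, the other receptor-activated SMAD of the pathway, was higher by more. It was at 392, 317 and 310 in the progenitors and at 110, 101 and 84.4 in hESC. The lowest progenitor array was well above the highest hESC array. SMAD3 rose by 1.63 (SE 0.12, adjusted p = 3e-05). Of its 4 probe sets 3 rose, by 0.64 to 1.63, and the other did not pass (0.21). That dim probe set was at 14.1, 18.7 and 19.4 in the progenitors and at 11.2, 20.0 and 12.6 in hESC. Averaged over all 4, SMAD3 changed by 0.87, again past the threshold.

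**Figure D2:**
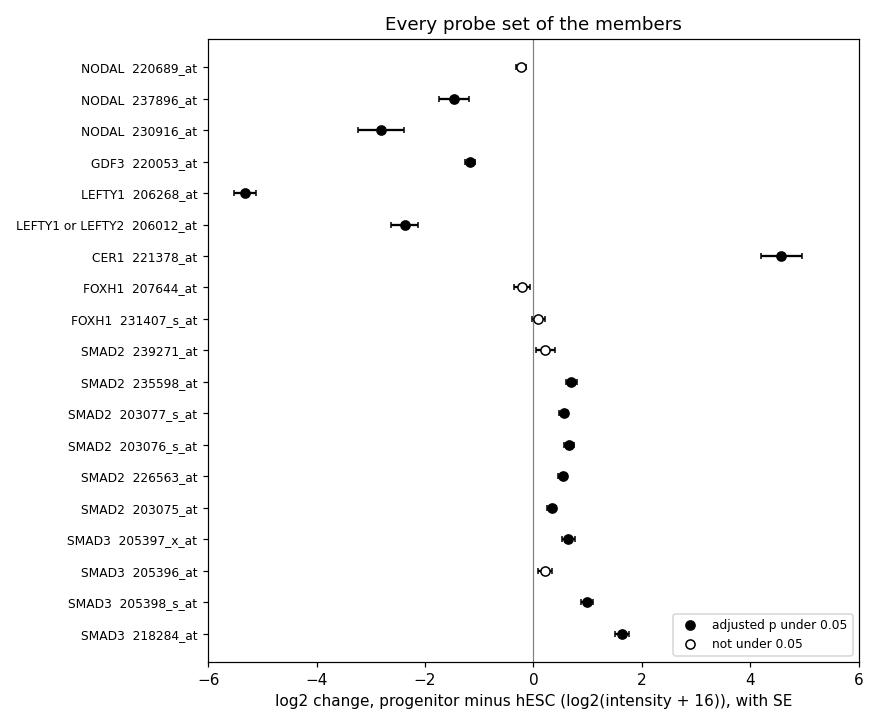
Log2 change (progenitor minus hESC, log2(intensity + 16)) with its standard error for the 18 probe sets of the members and the 1 shared by LEFTY1 and LEFTY2. Filled points passed an adjusted p of 0.05 over all probe sets; no member had probe sets that passed in opposite directions.

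Over the 18 probe sets, 13 passed in the fit over all probe sets, in which 40.2% were called. Of these, 8 were SMAD2 and SMAD3, all higher, and 1 was CER1, also higher. The other 4, lower, were 2 of NODAL and those of GDF3 and LEFTY1. Probe sets of 1 gene share the same RNA and are not replicates. In the plot of every probe set, 1 dim probe set each of NODAL, SMAD2 and SMAD3 lies near 0, on the same side as the others of its gene, while other dim ones passed.

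Within an array, 3 pairs of members were set against each other, to see whether their changes were unequal, since the levels of different probes cannot be compared. SMAD3 rose by 1.09 more than SMAD2 on the log2 scale (pooled SD 0.18), each on its brightest probe set. The probe set means gave changes closer to each other, 0.87 for SMAD3 and 0.50 for SMAD2. NODAL minus LEFTY1 changed by 2.52 (pooled SD 0.50) and CER1 minus NODAL by 7.38 (pooled SD 0.28), a value that moved between 5.72 and 8.34 with the pseudocount. Those 2 differences include probe sets near the median intensity of their arrays, LEFTY1 and, on arrays 2 and 3, NODAL in the progenitors and CER1 in hESC. Signal there was not shown to be above background, so neither is a measured gap between the genes. In each pair all 3 progenitor arrays lay on one side of all 3 hESC arrays. The two-sided exact permutation test gave 0.1 for each, the smallest p that 3 arrays against 3 allow, and 0.1 after adjustment over the 3 pairs.

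Among the progenitor arrays, NODAL and CER1 were both highest on array 1. On the log2 scale, array 1 was above the mean of arrays 2 and 3 by 1.42 for NODAL and by 1.38 for CER1, differences that 0.248% and 0.273% of all genes reached or passed in that direction. On this scale, CER1 minus NODAL was therefore nearly the same on arrays 1, 2 and 3, at 3.98, 3.95 and 4.09. The deposited NODAL intensities on arrays 2 and 3, at 32.8 and 27.6, lay near the array medians. NODAL signal there was not shown to be above background. The scale, with its pseudocount, understates differences of dim genes, so the near equality does not show that CER1 and NODAL moved together. LEFTY1 and SMAD3 were higher on array 1 by 0.20 and 0.28, GDF3 and SMAD2 differed there by -0.08 and -0.04, and FOXH1 by -0.33.

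Markers of vessel lining cells were high on the same array. Of 10 endothelial genes, 4 of which rose between the groups and 6 of which did not pass, 9 were higher on progenitor array 1 than on the mean of arrays 2 and 3, and the list summed to 5641, 1638 and 1783 on the progenitor arrays and to 754 to 869 on the hESC arrays. CDH5, a cadherin of vessel lining cells, was at 1012, 102 and 121 in the progenitors and at 1.40, 1.90 and 2.38 in hESC. SOX7, a transcription factor of early vessels, was at 1046, 235 and 257 in the progenitors and at 15.0, 21.5 and 20.2 in hESC. Their part in the spread of NODAL and CER1 was not tested. Neither the fall of NODAL nor the rise of CER1 was lost without array 1.

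In hESC, NODAL and LEFTY1 were the members that varied most. Array 2 was above the mean of arrays 1 and 3 by 0.83 for NODAL and by 0.66 for LEFTY1 on the log2 scale, which 0.511% and 1.19% of all genes reached or passed. Array 3 was below the mean of arrays 1 and 2 by -0.59 for NODAL, -0.45 for LEFTY1 and -0.45 for CER1. GDF3, FOXH1 and SMAD2 stayed within 0.18 of the mean of the other hESC arrays on each array. The hybridization controls had the same order of arrays, summing to 23765, 25003 and 20514 on hESC arrays 1, 2 and 3, and to 18178, 15667 and 16732 on the progenitor arrays. Their part in this order was not tested.

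**Figure D3:**
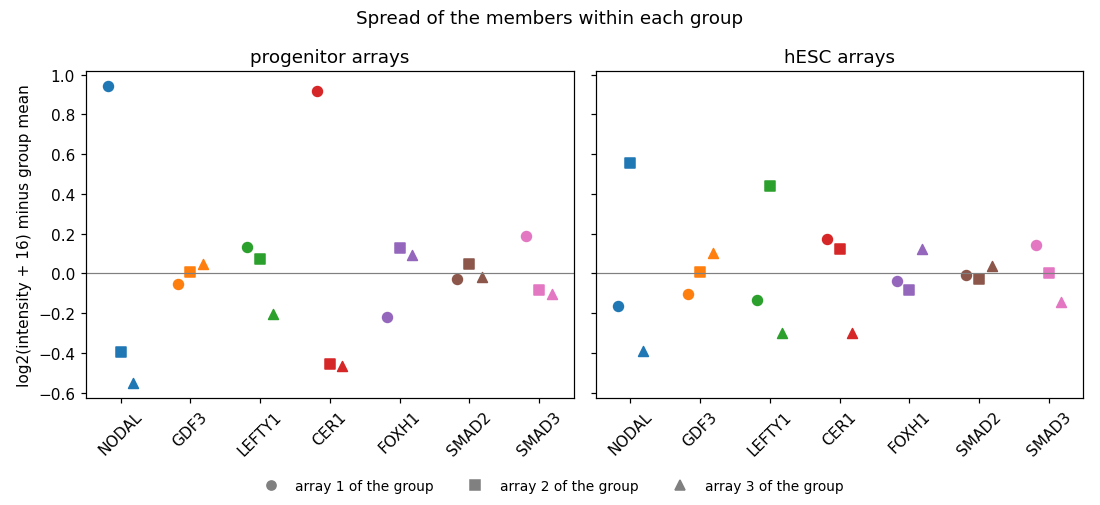
Deviation of each array from its group mean on the log2(intensity + 16) scale for the 7 measured members, with progenitor arrays on the left and hESC arrays on the right; symbols give the array number. NODAL and CER1 stand out upwards on progenitor array 1, and NODAL and LEFTY1 on hESC array 2.

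The genes with the profile nearest to each of 3 members over the 6 arrays were found by the root mean square difference of log2 deviations from each gene's own mean. Nearest to NODAL were SPP1, at a difference of 0.19, FZD5 at 0.32 and SEL1L3 at 0.33. SPP1, the secreted phosphoprotein osteopontin, was at 730, 303 and 335 in the progenitors and at 2733, 3968 and 2805 in hESC, so it too was highest on progenitor array 1 and on hESC array 2. Nearest to LEFTY1 were ACTA1 at 0.18, JAKMIP2-AS1 at 0.19 and PRDM14 at 0.29. Nearest to CER1 were GASK1B at 0.13, PLSCR2 at 0.24 and CRHBP at 0.25. GASK1B was at 892, 352 and 363 in the progenitors and at 9.95, 8.51 and 5.82 in hESC. It shared with CER1 the high value on progenitor array 1.

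Other genes of the pathway moved both ways. Of 33 listed, 32 were measured, and 12 rose, 11 fell and 9 did not pass, so that 71.9% were called, against 47.9% of all genes, with a median change of 0.02, against 0.04. With scaling on hybridization controls 18 rose and 5 fell, and with median centring 8 rose and 14 fell. CFC1, an EGF-CFC coreceptor of nodal, was at 519, 895 and 863 in the progenitors and at 2.07, 3.14 and 3.81 in hESC, close to the lowest values of the table. Its log2 change was 5.34 (SE 0.21, adjusted p = 1.7e-06), the largest rise of the list on the brightest probe sets. It was 7.60 at a pseudocount of 1 and 2.97 on its probe set mean, below BAMBI at 3.42. Its other probe set rose by 0.60. The close copy CFC1B can share its signal, which these probe sets may not separate. In contrast to NODAL and CER1, CFC1 was lowest on progenitor array 1.

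The related ligands fell on their brightest probe sets. INHBA, the subunit of activin A, was at 17.4, 31.3 and 34.6 in the progenitors and at 92.4, 106 and 85.5 in hESC, a log2 change of -1.29. Another probe set of INHBA changed by -1.55, a dim one was at 0.37 and did not pass, and the probe set mean was -0.82, past the threshold. INHBB, the subunit of activin B, fell by 1.45, at 1.48, 16.1 and 13.1 in the progenitors and at 67.2, 116 and 18.3 in hESC. The progenitor values of INHBA and INHBB, and INHBB on hESC array 3, lay near or below the array medians and were not shown to be above background. INHBB did not pass without any 1 of 5 arrays, among them each progenitor array and hESC arrays 1 and 2, with changes from -1.63 to -1.02. FURIN, a protease that cleaves the precursors of TGF-beta family ligands, rose by 2.38, at 616, 374 and 423 in the progenitors and at 85.4, 68.1 and 79.6 in hESC.

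Receptors changed by little on their brightest probe sets. The type I receptor ACVR1B was at 1056, 1010 and 1076 in the progenitors and at 771, 683 and 764 in hESC, and rose by 0.55 (adjusted p = 0.00161). Its second brightest probe set rose by 0.60. The mean of its probe sets did not pass (0.07), and 2 of its dim probe sets fell by 0.39 and 0.41. The type II receptor ACVR2B rose by 0.23 (adjusted p = 0.0425), and a dimmer probe set of it by 0.66. It did not pass under 11 of 20 alternatives, among them leaving out progenitor array 2 or 3 or hESC array 1 or 3 and the replicate block (adjusted p = 0.105). ACVR2A, the other type II receptor, did not pass at 0.04, while its other probe set rose by 0.89 and its probe set mean by 0.46, past the threshold. ACVR1C, a type I receptor for nodal, did not pass at -0.28, but did without progenitor array 2 (-0.40), with median centring (-0.52) and with no normalization (-0.37). It was at 19.7, 29.8 and 19.2 in the progenitors and at 34.7, 30.1 and 37.6 in hESC. These values lay near or below the array medians and were not shown to be above background. Relative to the median change of all genes, ACVR2A was at 0.07 and ACVR1C at -0.37 both with median centring and with scaling on hybridization controls.

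SMAD4, the common partner of SMAD2 and SMAD3, was at 683, 670 and 647 in the progenitors and at 390, 486 and 503 in hESC, and rose by 0.54 (adjusted p = 0.00515). Another of its probe sets rose by 0.52 and one fell by 2.03, and on the mean of its 5 probe sets SMAD4 was lower, at -0.24 (adjusted p = 0.0407, the highest over its 20 alternatives). The direction for SMAD4 thus depended on the probe set.

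Inhibitors were split. BAMBI, a membrane inhibitor of the pathway, was at 6843, 7067 and 7063 in the progenitors and at 611, 654 and 644 in hESC, a log2 change of 3.42 (SE 0.08). SMAD7, which blocks the activated receptors, rose by 1.20, at 1154, 1324 and 1306 in the progenitors and at 508, 680 and 494 in hESC. FST (follistatin), which traps activin, was at 1903, 802 and 838 in the progenitors and at 531, 659 and 441 in hESC. It rose by 1.04 (adjusted p = 0.0329), was highest on progenitor array 1 as NODAL and CER1 were, and did not pass without hESC array 1, 2 or 3 (1.04, 1.17 and 0.92). In all it did not pass under 8 of 20 alternatives, among them its probe set mean (0.80). Its other probe sets, at 0.43 and 0.92, did not pass. Without progenitor array 1 FST passed, at 0.64.

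Other inhibitors fell. SKIL, a repressor that binds SMAD proteins, fell by 0.95, at 1232, 1263 and 1257 in the progenitors and at 2519, 2780 and 2417 in hESC. NEDD4L, a ligase that marks activated SMAD2 and SMAD3 for breakdown, fell by 1.49, while a dim probe set of it rose by 0.31. NCLN, whose zebrafish counterpart antagonizes nodal, fell by 1.15. Its 2 other probe sets, at 0.00 and 0.01, did not pass. They were dim, at 12.7 or less on every array, and were not shown to be above background.

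Of 14 measured nodal target genes 11 rose, 2 fell and 1 did not pass, 92.9% called with a median change of 2.52, against 47.9% called and a median of 0.04 over all genes. EOMES, MIXL1, TBXT, SOX17, FOXA2, CXCR4 and NANOG are also in the marker lists of mesoderm, endoderm or pluripotency. The list was chosen with earlier results of these data known, so its share is not separate evidence on nodal targets. On the brightest probe sets the targets with the largest rises were the transcription factors of the streak and early mesoderm GATA6 (6.63 on its brightest probe set, 3.32 on its probe set mean), LHX1 (5.74), EOMES (5.38), MIXL1 (4.09) and TBXT (3.13). EOMES was at 2562, 2307 and 2329 in the progenitors and at 47.6, 69.4 and 27.5 in hESC. NANOG, a nodal target of stem cells, was at 153, 115 and 131 in the progenitors and at 2793, 3035 and 2367 in hESC, and fell by 4.17. OTX2, a factor of the epiblast, fell by 0.80 and did not pass without progenitor array 2 or 3 or hESC array 2 (-0.66, -0.68 and -0.75). Activin A, which binds the same receptors as nodal, was added to the medium with BMP4, FGF2 and VEGF. The arrays cannot attribute a target's change to nodal or to any 1 of these signals.

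**Figure D4:**
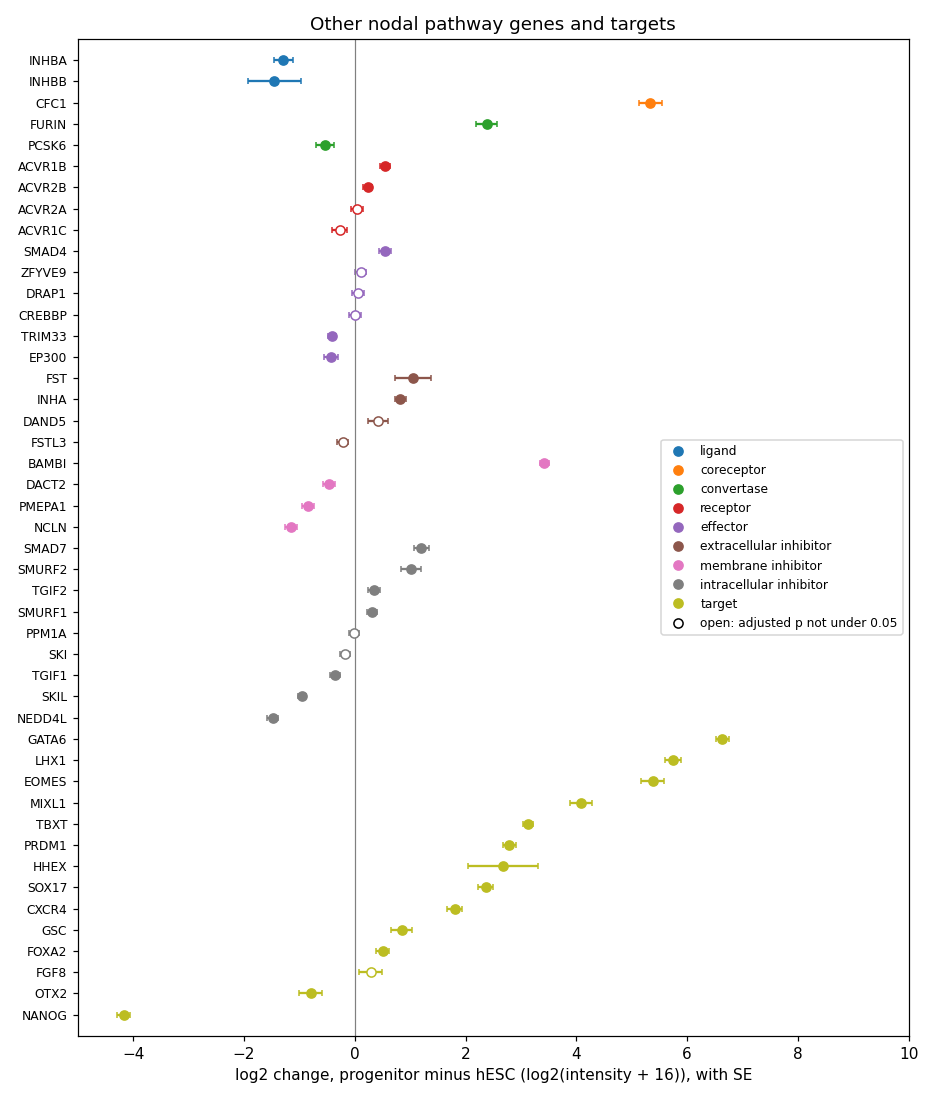
Log2 change (progenitor minus hESC, log2(intensity + 16)) with its standard error for 32 other pathway genes by role and for 14 target genes. On the brightest probe sets, which are plotted, CFC1 and BAMBI have the largest rises among the pathway genes and GATA6 among the targets, and open points did not pass an adjusted p of 0.05.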

How the data were processed

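Per the labels, RNA of 6 samples was amplified, biotin-labelled and hybridized to 1-colour arrays. The authors deposited 1 intensity per probe set on a linear scale, as the values show; how they were summarised, background-corrected or scaled is not given in the sources used here. In the table, 2.15% of values equal 1, with 19 below, down to 0.63. Probe sets were named from the platform annotation, 41091 with 1 gene, and symbols of 41037 were updated by gene identifier. The array controls, 62 probe sets, were not tested.

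Values were converted to log2(intensity + 16) and quantile-normalized, because the array medians spanned 0.1495, above a limit of 0.1. Each gene was represented by its brightest 1-gene probe set. Groups were compared with lmFit and eBayes of limma 3.58.1 (R 4.3.3), two-sided, with 6 arrays and no covariate, and Benjamini-Hochberg adjustment over 19775 genes. A second fit covered 54613 probe sets. The procedure was first tested on simulated data. Figures were drawn with matplotlib 3.10.9.

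The members and lists were chosen with earlier results of these data known. Named were all members with their probe sets, the receptors, SMAD4 and CFC1, the 5 largest changes past the threshold in each direction per list, the 3 nearest profiles and the defining markers. The probe sets of other pathway genes were chosen after their values were seen. Alternatives were 2 filters on dim genes, 3 other scalings, 2 pseudocounts, 2 probe set choices, 2 variance models, the replicate block, leaving out each array, an average of progenitor arrays 2 and 3, and a stricter threshold of 0.01. Replicate numbers did not pair the samples. The pairs LEFTY1 with LEFTY2 and GDF3 with TDGF1 were planned too but are not analysed here.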

Additional observations from a re-analysis of the deposited data

How the results depend on the processing

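The 6 called members kept their direction and their call in all 120 values from 20 alternatives each. Not all of these values could change direction. The filters on dim genes, the variance trend, the replicate block and the threshold of 0.01 leave the log2 change as it is and test only the call. Leaving out the _s_at and _x_at probe sets kept the same probe set for all 6. For CER1, GDF3 and LEFTY1, with 1 probe set, the probe set mean was also the same value. FOXH1, not called, turned to -0.13 with median centring, -0.056 on its probe set mean and -0.20 without the _s_at and _x_at probe sets, which may detect more than 1 transcript. ACVR2A turned to -0.074 with median centring and -0.038 without hESC array 1, and ACVR1C to 0.14 with scaling on hybridization controls. SMAD4 turned to -0.24 on its probe set mean. NCLN was at 0.000375 without the _s_at and _x_at probe sets, which left it only dim ones, not shown to be above background. ACVR2A also passed, as higher, on its probe set mean (0.46), without the _s_at and _x_at probe sets (0.89) and with scaling on hybridization controls (0.59). Called genes numbered 7909 to 9338 without 1 array, with 4398 to 5290 higher and 3511 to 4048 lower. Scaling on hybridization controls gave 14341 calls, 12576 higher and 1765 lower (87.7% higher, against 55.8%), with a median change of all genes of 0.52, and median centring gave 6436 lower (37.3% higher) with a median of -0.15; relative to both shifts FOXH1 was at 0.02, ACVR2A at 0.07 and ACVR1C at -0.37. Pathway genes that fell numbered 5 with scaling on hybridization controls, 7 without the dimmer 50% of genes, where fewer were tested, 7 at an adjusted p under 0.01, and 8 to 13 without 1 array. Target genes that rose numbered 4 without the dimmer 50% of genes. Target genes that fell numbered 1 with scaling on hybridization controls, with progenitor arrays 2 and 3 averaged and at 0.01, and 1 to 2 without 1 array. Where not stated, the cause was not tested. The SMAD3 and SMAD2 pair came to 0.80 at a pseudocount of 64, and the CER1 and NODAL pair to 8.34 at 1 and 5.72 at 64. Same-numbered arrays of the groups correlated at -0.022, 0.027 and -0.038 in their deviations, so the numbers do not pair them. With the replicate block the adjusted p in limma was 0.00133 for NODAL and 6.3e-06 for LEFTY1.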
